A study of Homo sapiens with 13 samples.

Results

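RNA-seq libraries of 4 doxycycline-treated samples were set against the single library of cells in which the SRSF2 construct was left uninduced, all from the human erythroleukaemia line HEL. The libraries are WT replicates 1 and 2, P95H replicates 1 and 2 and 1 uninduced P95H library, which makes 5 of the 13 samples of the series. A gene was called lower when its CPM (read counts per library total, scaled by TMM to even out library composition) was below the uninduced library in all 4 doxycycline libraries, and higher when it was above it in all 4. Among 15390 genes with at least 1 CPM in 2 of the 5 libraries, of 58581 in the count table, 4191 were lower (27.2%) and 3755 were higher (24.4%). Together these were 51.6% of the genes tested, and the other 7444 had doxycycline libraries on both sides of the uninduced value.

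HEL is a leukaemia line with erythroid and megakaryocytic features. Its cells carried a stable construct from which doxycycline induces SRSF2, in its wild-type form (WT) or carrying the P95H substitution. The WT group had 2 libraries and the P95H group 2 libraries, all treated for 48 hours with 1 µg/ml doxycycline. The uninduced group was 1 library of the P95H line, without doxycycline. All 5 came from ribosomal RNA-depleted RNA. No uninduced WT library was analysed here, so the WT libraries differ from the uninduced one in construct as well as in induction. Doxycycline itself, the protein it induces, and whatever else set the uninduced culture apart cannot be told apart, and 1 library gives no spread for its group. The other 8 samples measured RNA bound by tagged SRSF2 (HITS-CLIP, crosslinking and immunoprecipitation with sequencing). All 8 were also given 1 µg/ml doxycycline, but for less than the 48 hours of the RNA-seq libraries.

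SRSF2 is an SR protein, a family that binds exonic enhancer sequences and recruits the splicing machinery. P95H is a recurrent substitution in myelodysplastic syndromes and related leukaemias and alters which exonic motifs the protein favours. Doxycycline is a tetracycline antibiotic used to switch on engineered promoters, and it also inhibits translation by mitochondrial ribosomes.

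Total counts ranged from 37414093 in the uninduced library to 45005605, so that 3 counts corresponded to 0.0667 to 0.0802 CPM. Of 12 genes that mark HEL as an erythroid and megakaryocytic line, 11 passed the filter, and their summed level was 1810 to 2810 CPM per library. Of 13 markers of myeloid, lymphoid, epithelial and fibroblast cells, 2 passed (LYZ and CSF1R). EPCAM and KRT5 had no count in any library, and the sum of the 13 was 9.21 to 14.4 CPM. Longer lists of such genes held more that passed. Of 20 myeloid genes 7 passed, with a sum of 149 to 210 CPM per library, mostly CD33 (119 to 165 CPM). Also passing were 4 of 20 lymphoid genes and 3 of 16 epithelial and fibroblast genes, among them KRT18 (26.0 to 32.8 CPM). The libraries differed by replicate number. Mitochondrially encoded protein genes took 1.38% of counts in both libraries numbered 1, 4.50% and 4.30% in the WT and P95H libraries numbered 2, and 4.14% in the uninduced library. Ribosomal protein genes took 5.72% and 5.60% in the libraries numbered 1, 4.21% and 4.49% in those numbered 2 and 4.07% in the uninduced library. Medians against the uninduced library are therefore given below for each number as well.

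Most differences were small. Among lower genes the doxycycline library nearest to the uninduced one stood a median of 1.11-fold below it, and 1.33-fold at the 90th percentile. Higher genes had a median nearest gap of 1.07-fold, with 1.18-fold at the 90th percentile. A nearest gap of at least 1.2-fold was reached by 1078 lower genes (7.00% of those tested) and 303 higher genes (1.97%), and one of at least 1.5-fold by 136 (0.884%) and 54 (0.351%). For 1424 lower (9.25%) and 1199 higher genes (7.79%), the exact Poisson 95% interval of the uninduced count did not overlap that of any doxycycline library, intervals that cover counting error only. Lower genes had a median level of 16.0 CPM and higher genes one of 47.3 CPM. Pairs of libraries were also compared by the distance of their mean log2 CPM from the uninduced one. The pair numbered 2 was nearer than the pair numbered 1 in 71.6% of lower and 60.8% of higher genes. The P95H pair was nearer than the WT pair in 47.4% of lower and 71.5% of higher genes.

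By edgeR's quasi-likelihood test of the 4 libraries against 1, with the spread taken from the doxycycline libraries, no gene passed a Benjamini-Hochberg adjusted p of 0.05 (0% in either direction). At an unadjusted p under 0.05, 965 genes were lower (6.27%) and 379 higher (2.46%). DESeq2's Wald test called 39 genes lower (0.253%) and 9 higher (0.0585%). The WT and P95H libraries were also set against each other with no term for replicate number, so an absence of calls does not show them alike. They share the uninduced library as their only reference. Their distances from it differed for 0 genes in edgeR's test of the difference, with 57 and 50 genes at an unadjusted p under 0.05. How the list and gene values below were selected makes them descriptions, and edgeR called none of their members.

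The 15 lower genes with the largest nearest gap, among those with a mean of at least 2 CPM, were weakly to moderately expressed (mean 2.01 to 39.8 CPM) and lay 1.80-fold to 3.02-fold below the uninduced library at their nearest. Of these, 10 are annotated as protein-coding and 5 are not. In what follows, 4 values in a row are WT replicates 1 and 2, then P95H replicates 1 and 2. NTN3, a netrin of the secreted guidance-cue family on chromosome 16 (2471499 to 2474145, GRCh38), had 1.67, 1.07, 1.34 and 1.54 CPM against 5.03 CPM uninduced. ABHD1, a putative hydrolase, had 1.51, 1.30, 1.51 and 1.35 CPM against 4.47 CPM. In both genes the 4 doxycycline libraries lay close together and far from the uninduced one, and DESeq2 called both (adjusted p = 0.00344 each).

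VSIG4, an immunoglobulin-family complement receptor, and the non-coding gene RP6-159A1.4 are neighbours on chromosome X, at 66021738 to 66040125 on the minus strand and 66015461 to 66020422 on the plus strand. RP6-159A1.4 had 33.8, 18.7, 31.4 and 33.5 CPM against 81.5 CPM. VSIG4 had 1.98, 1.57, 2.40 and 2.69 CPM against 6.73 CPM. Both were lowest in WT replicate 2, and both were called by DESeq2 (adjusted p = 0.00343 for RP6-159A1.4 and 0.00961 for VSIG4). TYMP, thymidine phosphorylase, had 1.43, 1.27, 1.44 and 2.03 CPM against 4.42 CPM. THBS3, an extracellular matrix thrombospondin, had 2.55, 3.15, 2.42 and 3.19 CPM against 6.65 CPM. ELMO3, of the engulfment and cell motility family, had 3.77, 4.14, 3.96 and 4.20 CPM against 8.76 CPM, the tightest doxycycline values among these 3. DESeq2 called ELMO3 (adjusted p = 0.00344) and THBS3 (0.0272). The remaining members were LINC00235, DQX1, MYRF (a membrane-bound transcription factor), RP13-46H24.1, MIRLET7BHG (the host transcript of let-7b), PTOV1-AS2, SLC2A6 (a hexose transporter) and KRTCAP2 (a subunit of oligosaccharyltransferase). KRTCAP2, the last of the 15, had 4.10, 4.54, 4.36 and 4.90 CPM against 8.84 CPM. Of these remaining members DESeq2 called LINC00235 (adjusted p = 0.0207), KRTCAP2 (0.0213) and MIRLET7BHG (0.0413).

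**Figure D1:**
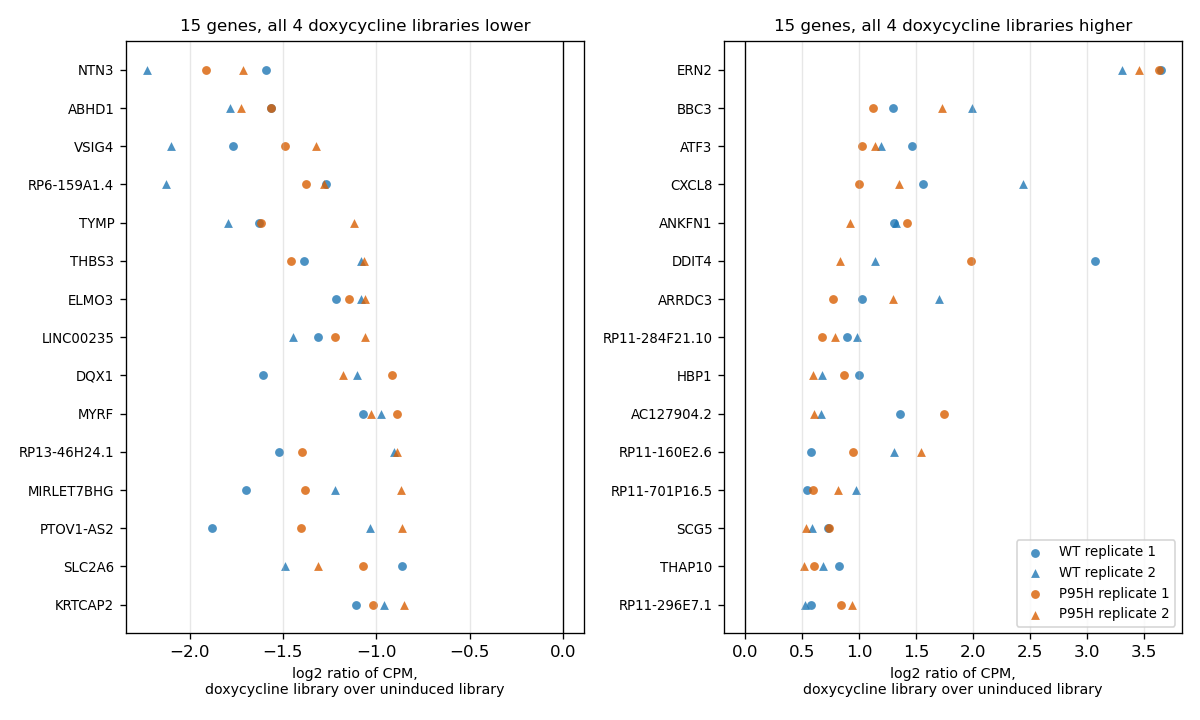
Log2 ratio of CPM in each doxycycline library over the uninduced library for the 15 lower (left) and 15 higher (right) genes with the largest nearest gap. Colours mark the construct and symbols the replicate number, and 0 is the uninduced library. ERN2 stands apart on the right, at a nearest gap of 9.90-fold, and the other 29 genes lie nearer.

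Among higher genes ERN2 had the largest gap. It encodes IRE1-beta, an endoplasmic reticulum stress sensor best known from mucosal epithelium, and lies on chromosome 16 at 23690326 to 23713500. ERN2 had 3.01, 2.37, 2.98 and 2.62 CPM against 0.239 CPM in the uninduced library, where 9 counts were found (exact Poisson 95% interval 0.110 to 0.455 CPM). The 4 libraries differed little from each other, and the nearest was 9.90-fold above the uninduced one (DESeq2 adjusted p = 1.83e-05). BBC3, which encodes the p53-induced cell death factor PUMA, had 3.47, 5.59, 3.08 and 4.67 CPM against 1.41 CPM. ATF3, a stress-induced transcription factor, had 16.3, 13.5, 12.1 and 12.99 CPM against 5.91 CPM (DESeq2 adjusted p = 0.000968).

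Several higher genes were less even across the 4 libraries. CXCL8, the chemokine interleukin-8, had 5.27, 9.64, 3.56 and 4.54 CPM against 1.78 CPM. DDIT4, an inhibitor of mTORC1 signalling, had 11.4, 3.00, 5.37 and 2.42 CPM against 1.36 CPM, so that both libraries numbered 1 stood above both numbered 2. ARRDC3, an arrestin-domain protein, showed the opposite order with 18.4, 29.3, 15.4 and 22.2 CPM against 9.02 CPM. HBP1, a transcriptional repressor of the HMG-box family, had 23.3, 18.6, 21.2 and 17.6 CPM against 11.6 CPM. The other members were ANKFN1, SCG5, THAP10 and 5 transcripts with clone-based names. THAP10 had 7.46, 6.76, 6.38 and 6.03 CPM against 4.21 CPM.

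DESeq2 also called genes outside the 30, some of which were picked here after their values were seen. SLC29A2, an equilibrative nucleoside transporter, had 31.5, 30.5, 34.6 and 38.2 CPM against 67.7 CPM (adjusted p = 4.92e-05). SCARB1, the high-density lipoprotein receptor, had 136, 137, 124 and 153 CPM against 221 CPM (adjusted p = 0.00560). EGFL7, the host gene of miR-126, had 95.4, 83.2, 80.6 and 110 CPM against 176 CPM (adjusted p = 0.00344). TXNIP, an inhibitor of thioredoxin and glucose uptake, had 129, 155, 108 and 142 CPM against 76.7 CPM (adjusted p = 0.0413). NEK2, a centrosomal kinase, was the most even of these, with 38.5, 40.2, 39.6 and 39.6 CPM against 27.5 CPM (adjusted p = 0.0171). FNDC7 had 1.06 to 1.72 CPM in the doxycycline libraries, and its 0.0798 CPM in the uninduced library came from so few counts that no ratio is given (DESeq2 adjusted p = 0.00761).

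SRSF2, the gene encoded by the construct, was itself lower (chromosome 17, 76734115 to 76737374). Its CPM were 221, 243, 222 and 253, a mean of 235 ± 15.7 (SD, n = 4), against 284 in the uninduced library. The doxycycline values did not reach the uninduced one. An exact permutation test over the 5 libraries gave p = 0.2, the smallest this design allows, and the adjusted p of edgeR was 0.558. Whether the construct's transcript would be counted in this gene depends on the parts of SRSF2 it carries, which the labels do not state, so the value does not check the induction. SRSF2 also overlaps MFSD11 on the opposite strand, and without strand the reads of both could not be told apart.

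To see which pathways stood on one side, 41 gene lists were counted, each beside the shares of all genes tested (27.2% lower and 24.4% higher). These shares changed with expression. Of 4 bins of protein-coding genes by CPM, the highest held 614 lower, 1301 higher and 1090 between genes. The lowest bin held 966, 378 and 1661. List shares were not adjusted for expression, so well-expressed lists could exceed 24.4% higher for that reason, which was not tested. The median of all genes tested was -0.02 on the log2 scale, as the mean log2 CPM (prior count 2) of the doxycycline libraries minus that of the uninduced library. The lists with the largest excess of lower members were fatty acid synthesis, the unfolded protein response, sterol sensing and cholesterol synthesis. At the other end stood cytosolic ribosomal proteins, hnRNPs, replication-dependent histones, aminoacyl-tRNA synthetases and the proteasome.

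**Figure D2:**
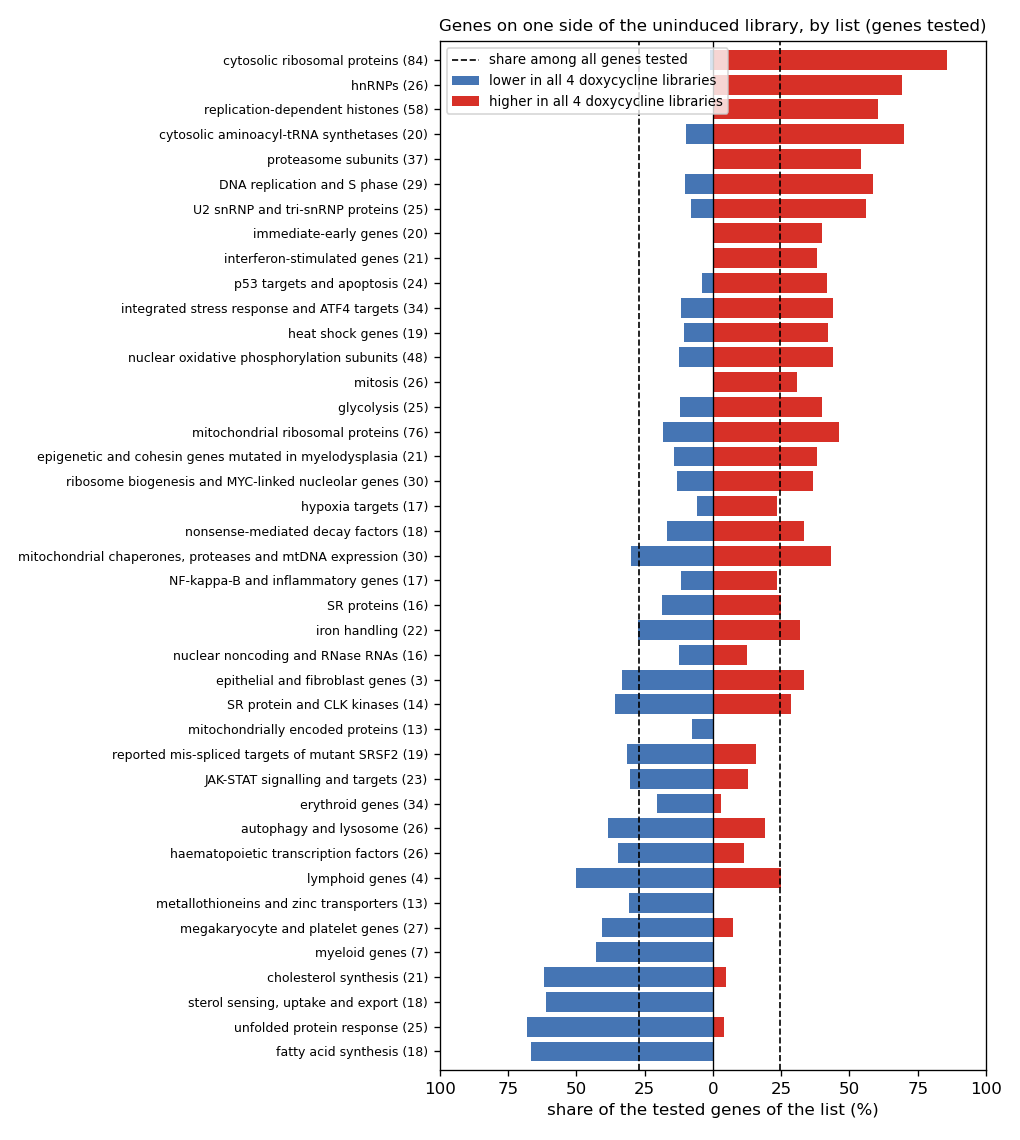
Share of the tested genes of each of 41 lists that was lower (blue, to the left) or higher (red, to the right) in all 4 doxycycline libraries, with the number of genes tested in brackets. Dashed lines mark the shares among all 15390 genes, 27.2% lower and 24.4% higher, and fatty acid synthesis (66.7% lower) and cytosolic ribosomal proteins (85.7% higher) are at the ends of the order.

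Genes of cholesterol synthesis were lower as a group. The pathway builds sterols from acetyl-CoA through mevalonate and squalene, and its genes are driven by the membrane-bound factor SREBP2. Of 21 genes tested, 13 were lower, 1 was higher and the median difference was -0.32. LSS, which closes the sterol ring, had 91.3, 37.1, 86.9 and 67.0 CPM against 135 CPM, lowest in WT replicate 2. DHCR7, of the last steps, had 67.0, 43.7, 59.8 and 61.9 CPM against 118.5 CPM, with every doxycycline library well below the uninduced one. MVD, of the mevalonate steps, had 28.7, 23.6, 28.1 and 26.4 CPM against 43.6 CPM. DESeq2 called both DHCR7 (adjusted p = 0.00762) and MVD (0.0140). GGPS1, which makes the geranylgeranyl group rather than sterols, was the higher member at 34.9, 38.0, 33.2 and 33.1 CPM against 28.6 CPM.

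Not every step followed. HMGCS1, IDI1, FDPS and FDFT1 of the early and middle pathway lay between. HMGCS1 had 72.7 and 72.8 CPM in the libraries numbered 1, 41.2 and 45.3 CPM in those numbered 2 and 60.6 CPM in the uninduced library. The list's median was -0.25 in the libraries numbered 1 and -0.49 in those numbered 2.

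The regulators and carriers of sterols showed 11 lower and 0 higher genes of 18, with a median of -0.34. SREBF1, which encodes the SREBP1 factor of lipid synthesis, had 104, 44.2, 91.0 and 91.8 CPM against 181 CPM, and WT replicate 2 stood apart from the other 3. SREBF2, which encodes SREBP2, had 215, 148, 185 and 170 CPM against 280.4 CPM. SCAP, the sterol-sensing escort of both factors, had 81.0, 97.4, 73.7 and 92.9 CPM against 129 CPM. INSIG1, which retains SCAP in the endoplasmic reticulum, spread most. Its 226 and 196 CPM in the libraries numbered 1 were near the uninduced 235 CPM, and those numbered 2 had 63.7 and 114 CPM. The median of the list was -0.18 in the libraries numbered 1 and -0.30 in those numbered 2. With the counting-interval condition, 7 of the 11 remained.

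Fatty acid synthesis had 12 lower and 0 higher genes of 18, and a median of -0.34 (-0.35 in the libraries numbered 1 and -0.24 in those numbered 2). FASN, the fatty acid synthase, had 1076, 731, 945 and 828 CPM against 1357 CPM. SCD, the stearoyl-CoA desaturase, had 964, 393, 894 and 649 CPM against 1193 CPM, again lowest in WT replicate 2. FADS2 and FADS1 desaturate polyunsaturated fatty acids. FADS2 had 421, 232, 358 and 316 CPM against 596 CPM, and FADS1 had 117, 99.2, 127 and 115 CPM against 161 CPM. DESeq2 called none of the 18. ACLY, ACSS2 and ME1, which supply acetyl-CoA and reducing power, lay between.

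**Figure D3:**
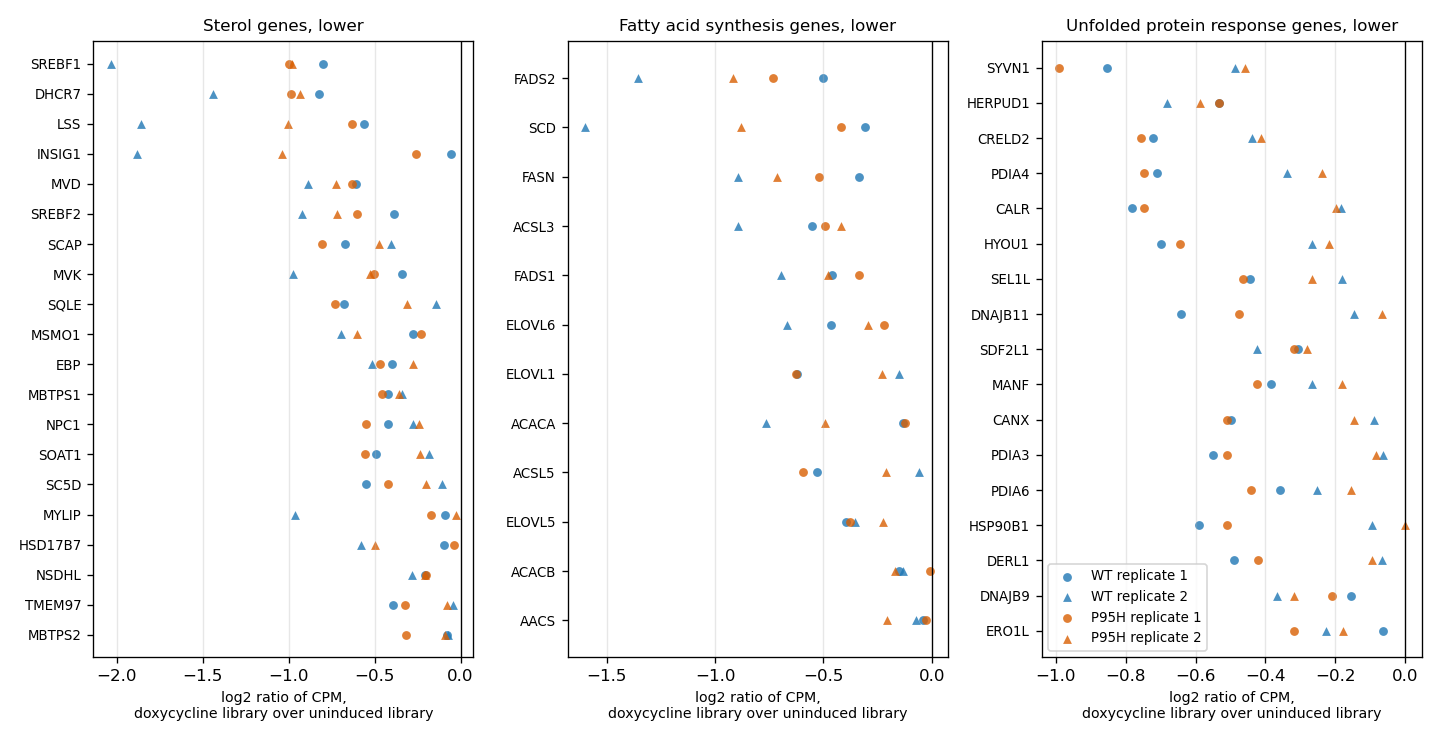
Log2 ratio of CPM over the uninduced library for lower members, with a mean of at least 2 CPM, of both sterol lists (left), fatty acid synthesis (middle) and the unfolded protein response (right). In the left and middle panels WT replicate 2 (blue triangles) is often farthest from 0, as for SREBF1 at 44.2 against 181 CPM, and in the right panel the circles (replicate 1) mostly lie farther from 0 than the triangles.

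The unfolded protein response list holds chaperones and degradation factors of the endoplasmic reticulum that the factors ATF6 and XBP1 induce when unfolded protein builds up. Of 25 genes tested, 17 were lower and 1 was higher, with a median of -0.30 (-0.46 in the libraries numbered 1 and -0.19 in those numbered 2). HERPUD1 and SYVN1 act in degradation of misfolded protein. HERPUD1 had 33.6, 30.4, 33.6 and 32.4 CPM against 48.6 CPM and was called by DESeq2 (adjusted p = 0.0137). SYVN1 had 18.98, 24.5, 17.2 and 24.9 CPM against 34.3 CPM. Among lectin chaperones, CALR had 678, 1026, 694 and 1015 CPM against 1164 CPM, and CANX had 1527, 2030, 1516 and 1952 CPM against 2159 CPM. In both the libraries numbered 2 came near the uninduced one. HSPA5, the main chaperone BiP, lay between at 553, 963, 654 and 1024 CPM against 1015 CPM.

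Several of these genes hold, in their promoter windows, the letters of the response element known for ATF6 and XBP1. The windows (250 bases before to 50 after a start, RefSeq, GRCh38.p14) were searched on both strands for ERSE, spelled CCAAT, any 9 bases and CCACG, and ERSE-II, spelled ATTGG, any 1 base and CCACG, and ERSE holds within it the shorter CCAAT box. Of 35116 windows, 27 hold ERSE (0.0769%) and 19 hold ERSE-II (0.0541%). A window was found for 22 of the 25 listed genes, 15 of them lower. Of the 22, 10 hold one of the motifs, 8 lower and 2 between. They are shown because the same element occurs in genes that were lower and in HSPA5, which was not. Capitals mark the match, which reads as its reverse complement in CALR, CRELD2, SDF2L1 and HYOU1, and each line runs 5′ to 3′ on the gene's strand.
HSP90B1: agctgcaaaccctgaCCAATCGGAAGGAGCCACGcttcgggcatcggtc
CALR: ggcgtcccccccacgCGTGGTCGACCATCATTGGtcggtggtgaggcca
CRELD2: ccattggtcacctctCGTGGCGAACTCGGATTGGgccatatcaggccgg
PDIA6: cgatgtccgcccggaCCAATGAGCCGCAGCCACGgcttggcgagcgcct
CANX: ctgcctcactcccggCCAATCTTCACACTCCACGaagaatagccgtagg
HSPA5: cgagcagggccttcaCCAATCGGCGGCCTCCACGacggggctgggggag
HERPUD1: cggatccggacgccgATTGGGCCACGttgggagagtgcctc
SDF2L1: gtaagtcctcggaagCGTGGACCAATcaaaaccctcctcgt
HYOU1: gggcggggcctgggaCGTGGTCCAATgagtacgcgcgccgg

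On the plus strand these stretches are chr12:103930201-103930249 (HSP90B1), chr19:12938369-12938417 (CALR), chr22:49918539-49918587 (CRELD2), chr5:179698763-179698811 (CANX), chr16:56932010-56932050 (HERPUD1) and chr22:21642099-21642139 (SDF2L1). On the minus strand they are chr2:10812838-10812886 (PDIA6), chr9:125241376-125241424 (HSPA5) and chr11:119057259-119057299 (HYOU1). HSPA5 and HSP90B1 carry the same motif class, and their CPM differed in where replicate 2 of P95H fell. HSP90B1 had 990, 1394, 1047 and 1489 CPM against 1490 CPM, so that 1 library was almost level. CRELD2, by contrast, had 10.2, 12.5, 10.0 and 12.7 CPM against 16.9 CPM, clear of the uninduced value in all 4. SDF2L1 had 10.9, 10.0, 10.8 and 11.1 CPM against 13.5 CPM. A match describes letters in the window and no binding was measured here.

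For the sterol lists the element searched was a sterol regulatory element known for SREBPs, spelled TCACNCCAC, on both strands, which occurs in 1.13% of all windows. It was found in 0 of 16 cholesterol synthesis windows, 1 of 17 sterol sensing windows and 1 of 17 fatty acid synthesis windows. The sterol sensing member is SREBF2, which was lower, with the match in capitals (chr22:41832957-41832995, plus strand).
SREBF2: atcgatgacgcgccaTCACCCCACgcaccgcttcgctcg

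The integrated stress response went the other way. In this pathway kinases that sense amino acid loss, haem loss, viral RNA or misfolded protein slow translation, which raises the factor ATF4 and its targets in amino acid supply. Of 34 genes tested, 15 were higher and 4 lower, with a median of 0.15 (0.23 in the libraries numbered 1 and 0.08 in those numbered 2). ATF4 itself had 378, 349, 312 and 340 CPM against 293 CPM. ASNS, asparagine synthetase, had 68.2, 37.6, 60.5 and 43.0 CPM against 33.4 CPM, with the libraries numbered 1 the higher. CHAC1, which degrades glutathione, had 15.3, 4.47, 6.31 and 5.17 CPM against 3.41 CPM, and WT replicate 1 held most of that gap. MTHFD2, of mitochondrial folate metabolism, had 349, 279, 306 and 272 CPM against 219.9 CPM. Other targets did not separate, and DDIT3 (CHOP) had 4.92, 5.07, 4.26 and 4.65 CPM against 4.44 CPM. DESeq2 called ATF3 from this list.

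The lower members were SLC7A5, SLC7A1, VLDLR and the kinase gene EIF2AK3. VLDLR, a lipoprotein receptor, had 4.02, 5.07, 5.70 and 6.08 CPM against 8.76 CPM, and EIF2AK3, the kinase PERK, had 23.2, 25.7, 23.2 and 27.3 CPM against 30.3 CPM. Without WT replicate 2, 7 rather than 4 members were lower. The composite element that ATF4 shares with C/EBP factors was searched as TGATGNAA on both strands and occurs in 3.62% of all windows. It was present in 8 of 26 windows of the list, 4 from higher, 1 from lower and 3 from between genes, and 13 of the 26 windows belong to higher genes. Those of the 4 higher genes are shown with the match in capitals (the reverse complement in CHAC1). They lie at chr7:97872454-97872491 on the minus strand (ASNS) and, on the plus strand, at chr1:212565201-212565238 (ATF3), chr19:33374056-33374093 (CEBPG) and chr15:40953247-40953284 (CHAC1).
ASNS: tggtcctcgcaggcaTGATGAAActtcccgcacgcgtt
ATF3: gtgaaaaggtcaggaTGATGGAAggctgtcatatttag
CEBPG: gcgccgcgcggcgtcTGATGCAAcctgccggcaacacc
CHAC1: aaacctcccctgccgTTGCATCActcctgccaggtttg

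Cytosolic aminoacyl-tRNA synthetases, which charge tRNAs and include known ATF4 targets, had 14 higher and 2 lower genes of 20 with a median of 0.15. DARS had 182, 155, 174 and 150 CPM against 124 CPM. EPRS, the bifunctional glutamyl-prolyl enzyme, had 707, 646, 673 and 638 CPM against 544 CPM. The lower members were VARS and FARSA, and FARSA had 130, 141, 121 and 129 CPM against 145 CPM. None was called by DESeq2.

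Mitochondrially encoded genes split by replicate number, with the uninduced library near the libraries numbered 2. The labels do not state with which number the uninduced library was prepared, and whether doxycycline had a part was not tested. Of 13 protein genes 1 was lower and 0 higher, although the median difference was -0.71. It was -1.60 in the libraries numbered 1 and 0.13 in those numbered 2. MT-CO1, a core subunit of cytochrome oxidase, had 3058 and 3061 CPM in the libraries numbered 1, 11930 and 9481 CPM in the WT and P95H libraries numbered 2 and 10280 CPM in the uninduced library. MT-CO2, the lower member, had 1385, 3933, 1144 and 3991 CPM against 4019 CPM. The 2 libraries numbered 1 alone carried the negative median.

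Nuclear genes for the same machinery did not show this split. Of 48 nuclear subunits of oxidative phosphorylation, 21 were higher and 6 lower, with a median of 0.10 (0.13 in the libraries numbered 1 and 0.06 in those numbered 2). ATP5F1, a subunit of ATP synthase, had 259, 236, 244 and 227 CPM against 189 CPM. Mitochondrial ribosomal proteins, which make up the particle that doxycycline inhibits, had 35 higher and 14 lower genes of 76 with a median of 0.09. MRPL13 had 92.3, 84.8, 83.4 and 82.0 CPM against 70.2 CPM, and MRPL46 had 14.9, 14.4, 14.4 and 14.5 CPM against 19.9 CPM. A further mitochondrial list of 30 chaperones, proteases and genes of mitochondrial DNA expression had 13 higher and 9 lower members. The higher share was 43.3%, and the lower share of 30.0% was near that of all genes tested. POLG, the mitochondrial DNA polymerase, had 117, 126, 105 and 130.0 CPM against 161 CPM, and POLRMT, the RNA polymerase, had 75.3, 81.6, 61.5 and 78.6 CPM against 98.5 CPM. TFB2M, a mitochondrial transcription factor, was higher with 52.1, 52.8, 45.8 and 48.9 CPM against 39.7 CPM. HSPE1, a mitochondrial chaperonin, had 64.8, 54.8, 57.7 and 57.1 CPM against 45.8 CPM.

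Glycolysis genes were more often higher than lower, with 10 higher and 3 lower of 25 and a median of 0.14. LDHA, lactate dehydrogenase A, had 1041, 939, 978 and 924 CPM against 776 CPM. GAPDH had 1605, 1256, 1472 and 1243 CPM against 1148 CPM. The median was 0.20 in the libraries numbered 1 and 0.02 in those numbered 2, and 7 rather than 3 genes were lower without WT replicate 2.

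Cytosolic ribosomal protein genes formed the most one-directional list. Of 84 tested, 72 were higher and 1 lower, with a median of 0.29. It was 0.41 in the libraries numbered 1 and 0.15 in those numbered 2. RPL21 had 509, 411, 514 and 429 CPM against 328 CPM, and RPL11 had 859, 829.8, 900.3 and 834 CPM against 698 CPM. RPS6 had 3226, 2285, 3069 and 2406 CPM against 2117 CPM. In RPS6 and RPL21 both libraries numbered 1 stood above both numbered 2, which were nearer to the uninduced library. RPL17 was the lower member, at 4.83, 6.71, 4.87 and 6.82 CPM against 7.21 CPM. Ribosomal protein genes have many processed copies, so reads could be split between a gene and its copies. When CPM were taken on library totals, 54 of the 84 were higher.

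**Figure D4:**
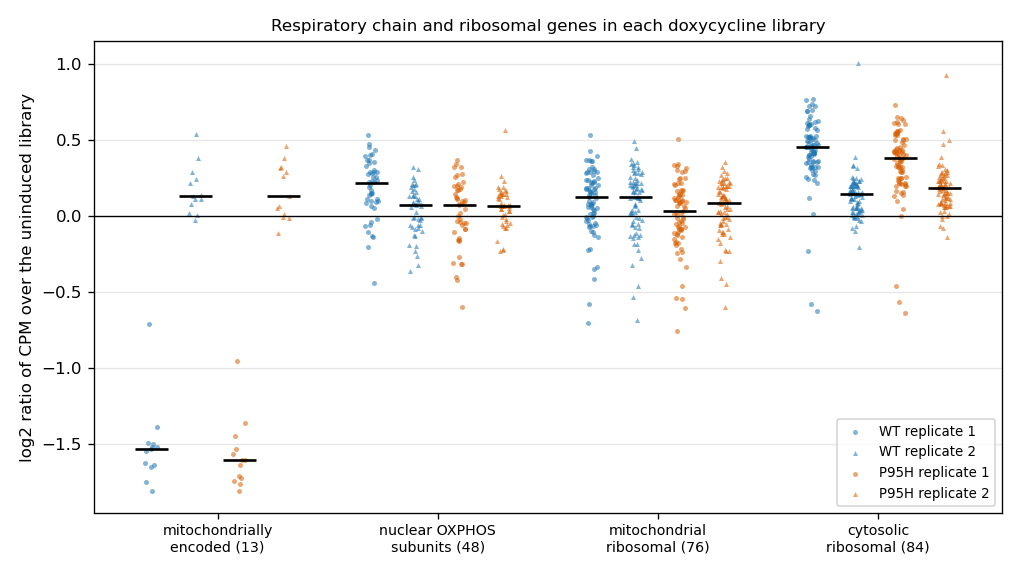
Log2 ratio of CPM over the uninduced library for each gene (points) of 4 lists in each doxycycline library, with black bars at the median. Mitochondrially encoded genes of both libraries numbered 1 sit below -0.5 and those of both libraries numbered 2 near 0, while cytosolic ribosomal proteins lie mostly above 0 in all 4.

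Ribosomal protein messages start with a 5′ terminal oligopyrimidine (TOP) tract, which couples their translation to mTORC1. A start was counted as TOP when the RefSeq start base was C and the next 4 bases were pyrimidines, a feature of 4.07% of all windows. Among protein-coding genes with a window it was present in 7.51% of higher genes, 5.02% of lower genes and 4.49% of those between. Leaving out ribosomal proteins, the share in higher genes was 6.26%. Of 68 ribosomal protein windows 64.7% had one. The first 20 bases of 4 higher members are shown with the tract in capitals, from chr9:19380217-19380236 (RPS6, minus strand), chr3:101686699-101686718 (RPL24, minus strand), chr10:78033863-78033882 (RPS24, plus strand) and chr9:133348218-133348237 (RPL7A, plus strand).
RPS6: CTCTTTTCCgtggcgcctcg
RPL24: CTTTCTTTTCgccatctttt
RPS24: CTCTTTTCCTCCTTggctgt
RPL7A: CTTTCTCTCTCCTCCCgccg

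RPL24 had 756, 591, 705 and 603 CPM against 529 CPM. RPS24 had 674, 562, 659 and 577 CPM against 492 CPM, and RPL7A had 847, 683, 791 and 682 CPM against 618 CPM. All 3 kept the order of RPS6, with libraries numbered 1 above those numbered 2. Ribosome biogenesis genes differed from the proteins of the ribosome. Of 30, 11 were higher and 4 lower, and their median of 0.00 took the other sign when CPM were taken on library totals. NPM1, a nucleolar chaperone, had 2865, 2517, 2799 and 2556 CPM against 2122 CPM, while BOP1 had 171, 172, 141 and 167 CPM against 192 CPM. Without WT replicate 2, 14 rather than 4 of them were lower.

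Genes of the splicing machinery were mixed. Of 16 SR proteins 3 were lower (SRSF2, SRRM2 and SRSF5) and 4 higher (TRA2A, SRSF3, SRSF7 and SRSF4), with a median of 0.06. SRRM2, a large scaffold of nuclear speckles, had 874, 1027, 920 and 1023 CPM against 1157 CPM. TRA2A, which binds GA-rich enhancers, had 77.5, 79.3, 77.8 and 77.6 CPM against 62.5 CPM, the tightest doxycycline values of the list. Under DESeq2 size factors 8 rather than 4 SR proteins were higher, and 7 without WT replicate 1.

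Kinases of SR proteins and their relatives stood on both sides. All 4 CLK genes and SRPK3 made up the 5 lower members of 14, and SRPK2 with HIPK1, HIPK2 and HIPK3 the 4 higher ones. The lower share was 35.7%, and the higher share of 28.6% was near that of all genes tested. CLK1 had 61.9, 45.3, 63.5 and 46.4 CPM against 76.2 CPM. CLK2 had 77.2, 88.8, 71.8 and 98.8 CPM against 119 CPM, so the replicate numbers ordered CLK1 and CLK2 oppositely. SRPK3 had 7.48, 11.5, 8.17 and 12.2 CPM against 19.3 CPM, and CLK4 had 21.1, 17.3, 20.7 and 16.8 CPM against 24.6 CPM. The higher members were close to the uninduced library, and SRPK2 had 50.9, 47.8, 49.5 and 49.1 CPM against 44.4 CPM.

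The hnRNPs, which package nascent RNA and often counter SR proteins, had 18 higher and 0 lower genes of 26. Their median of 0.15 was nearly the same in both replicate numbers (0.16 and 0.14), unlike that of ribosomal proteins. HNRNPA1 had 2284, 2106, 2206 and 2023 CPM against 1648 CPM. HNRNPC was more even, at 787, 788, 782 and 773 CPM against 679 CPM. Proteins of the U2 and tri-snRNP particles had 14 higher and 2 lower of 25 with a median of 0.09, and SNRPB2 had 90.6, 88.7, 92.8 and 85.3 CPM against 73.7 CPM. Factors of nonsense-mediated decay, which removes messages with early stop codons, had 6 higher and 3 lower of 18 with a median of 0.02. MAGOH of the exon junction complex had 78.3, 76.6, 79.5 and 83.1 CPM against 67.3 CPM. Without WT replicate 2, 7 rather than 3 were lower. Of 19 genes reported elsewhere as mis-spliced in SRSF2 mutants, 6 were lower (31.6%, near the share of all genes tested) and 3 higher (15.8%). Without WT replicate 1 or under DESeq2 size factors, 8 were higher. INTS3 of the Integrator complex had 63.1, 69.6, 67.4 and 76.1 CPM against 86.2 CPM.

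Of 27 megakaryocyte and platelet genes 11 were lower (40.7%) and 2 higher (7.41%), with a median of -0.12 (-0.26 in the libraries numbered 1 and -0.10 in those numbered 2). ITGA2B, the platelet integrin CD41, had 521, 507, 527 and 593 CPM against 806 CPM, and DESeq2 called it (adjusted p = 0.00808). GP1BA, the von Willebrand factor receptor, had 20.9, 24.3, 25.8 and 30.8 CPM against 36.1 CPM. FLI1, a megakaryocytic transcription factor, was higher by little, with 428, 373, 391 and 384 CPM against 372 CPM. In bulk RNA, fewer cells of a type and less RNA per cell cannot be told apart.

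Erythroid genes mostly lay between. Of 34, 7 were lower (20.6%, below the share of all genes tested) and 1 higher, with a median of -0.12 (-0.29 in the libraries numbered 1 and 0.02 in those numbered 2). RHCE, a blood group antigen, had 72.2, 70.4, 62.9 and 70.8 CPM against 94.8 CPM. KLF1, the erythroid master regulator, had 57.1, 77.4, 56.8 and 68.8 CPM against 78.9 CPM. TFRC, the transferrin receptor, lay between with 767 and 848 CPM in the libraries numbered 1, 1520 and 1250 CPM in those numbered 2 and 1330 CPM in the uninduced one. Without WT replicate 2, 17 rather than 7 were lower. Among 26 haematopoietic transcription factors 9 were lower and 3 higher. GATA2 had 410, 428, 402 and 453 CPM against 519 CPM, and MYC had 390.0, 397, 352 and 391 CPM against 439 CPM. GATA2-AS1, a transcript antisense to GATA2, had 17.7, 16.8, 15.9 and 21.0 CPM against 34.7 CPM (DESeq2 adjusted p = 0.00343), and the labels do not state whether counting used strand. Of 22 iron genes, 6 were lower (27.3%, near the share of all genes tested) and 7 higher. TFR2, the second transferrin receptor, had 56.5, 75.8, 67.3 and 85.0 CPM against 108 CPM.

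For DNA replication 17 of 29 genes were higher (58.6%) and 3 lower with a median of 0.14, and MCM6 of the replicative helicase had 285, 228, 254 and 223 CPM against 202 CPM. The exceptions were POLE, E2F1 and CDT1. POLE, the leading-strand polymerase, had 217, 247, 214 and 262 CPM against 301 CPM. Replication-dependent histones had 35 higher and 0 lower of 58 (median 0.18), and HIST1H2BD had 151, 134, 155 and 139 CPM against 108 CPM. Histone genes are near-identical copies of each other, so single members are uncertain. Mitotic genes had 8 higher (30.8%, near the share of all genes tested) and 0 lower of 26, and 18 were higher without WT replicate 1. PTTG1, the securin, had 94.5, 89.1, 90.6 and 88.7 CPM against 74.5 CPM. Proteasome subunits had 20 higher and 0 lower of 37 (median 0.13), and PSMA5 had 158, 161, 152 and 149 CPM against 131 CPM.

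Among stress and signalling lists, p53 targets and apoptosis genes had 10 higher and 1 lower of 24 with a median of 0.17. PMAIP1, which encodes the BH3 protein NOXA, had 56.2, 57.2, 53.04 and 49.8 CPM against 37.5 CPM. The lower member, BID, was nearly level at 49.1, 52.3, 49.9 and 51.1 CPM against 52.7 CPM, and 4 were lower without WT replicate 2. Immediate-early genes, which respond within minutes to growth signals, had 8 higher and 0 lower of 20 (median 0.25). EGR1 had 21.4, 11.7, 21.9 and 34.1 CPM against 9.55 CPM, and JUN had 22.0, 46.0, 16.6 and 28.2 CPM against 14.6 CPM, both with wide spreads. Interferon-stimulated genes had 8 higher and 0 lower of 21 (median 0.21, and 0.21 in either replicate number). IFIT3 had 10.8, 14.3, 11.3 and 9.76 CPM against 7.61 CPM. Heat shock genes had 8 higher and 2 lower of 19, the 2 lower being HSF1 and HSPA1B. HSF1, the heat shock transcription factor, had 105, 119, 92.0 and 111 CPM against 135 CPM, whereas HSP90AB1 had 3625, 3551, 3628 and 3437 CPM against 3045 CPM.

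JAK-STAT signalling genes, a pathway central to erythroid growth, had 7 lower (30.4%, near the share of all genes tested) and 3 higher of 23. Their median of -0.01 changed sign under DESeq2 size factors. TYK2, a Janus kinase, had 109, 147, 106 and 146 CPM against 163 CPM, and CISH, a feedback inhibitor, had 12.9, 15.2, 14.6 and 14.2 CPM against 17.9 CPM. Hypoxia targets had 4 higher (23.5%, near the share of all genes tested) and 1 lower of 17. With WT replicate 2 left out, 7 were higher. Their median was 0.34 in the libraries numbered 1 and -0.02 in those numbered 2. BNIP3L, a mitophagy receptor, had 125, 93.5, 116 and 87.8 CPM against 77.4 CPM. Inflammatory genes of the NF-kappa-B pathway had 4 higher (23.5%, near the share of all genes tested) and 2 lower of 17. NFKB2 was barely lower in WT replicate 1, with 28.8, 21.9, 24.8 and 22.1 CPM against 28.9 CPM.

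Autophagy and lysosome genes had 10 lower (38.5%) and 5 higher of 26 with a median of -0.16. MCOLN1, a lysosomal calcium channel, had 8.43, 14.8, 7.37 and 12.9 CPM against 17.7 CPM. MAP1LC3B, the autophagosome marker LC3B, was higher with 70.0, 69.7, 64.8 and 61.4 CPM against 49.3 CPM. For zinc, 4 of 13 genes were lower (30.8%, near the share of all genes tested) and 0 higher, and the lower members were all of the SLC39 importer family. SLC39A14 had 123.3, 147, 119 and 158 CPM against 191 CPM. Without WT replicate 2, 10 zinc genes were lower. Of 21 chromatin and cohesin genes mutated in myelodysplasia, 8 were higher and 3 lower (6 without WT replicate 2). RAD21, a core cohesin subunit, had 721, 739, 712 and 661 CPM against 577 CPM, and BCORL1, a corepressor, had 55.1, 57.3, 54.4 and 53.6 CPM against 67.9 CPM.

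Lower and higher genes also differed in features that the grouping did not use. Promoter windows were found for 9817 of 12019 protein-coding genes tested (81.7%). Their median GC content was 67.3% in lower genes, 63.3% in higher genes and 64.7% in those between. With genes in 5 bins by GC content, from the bin with the least (median 50.7%) to that with the most (76.7%), the lower share went from 19.3% to 37.6% and the higher share from 31.6% to 19.2%. The genes' median span in the genome was 25636 bases for lower genes, 37566 bases for higher genes and 35598 bases for those between. GC content of the transcripts was not analysed here, and the part of library preparation in this pattern was not tested.

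**Figure D5:**
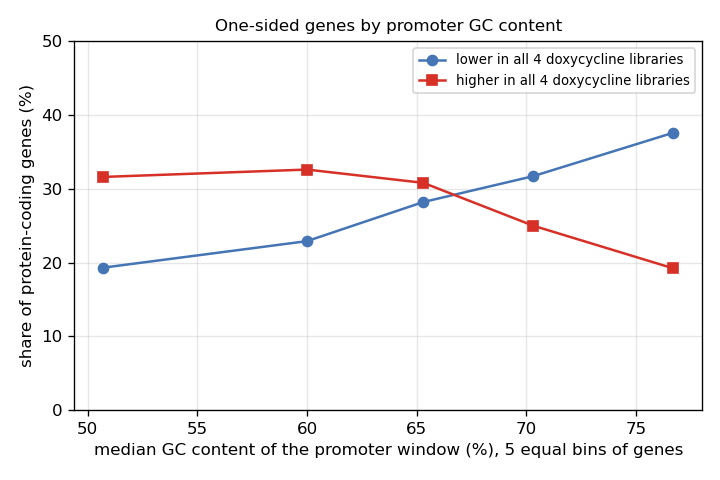
Share of protein-coding genes that were lower (blue) or higher (red) in all 4 doxycycline libraries, in 5 bins of promoter GC content and placed at each bin's median. The lower share goes from 19.3% to 37.6% across the bins, and the higher share from 31.6% to 19.2%.

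Transcript classes differed in direction. Of 946 antisense genes 30.4% were lower and 11.4% higher, and of 692 lincRNAs 24.7% and 13.3%. Processed pseudogenes were reversed, with 13.8% of 668 lower and 21.9% higher. Protein-coding genes were nearly balanced at 27.9% and 27.3%.

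HITS-CLIP gave a readout that the grouping did not use. Its cells had doxycycline for a shorter time than those of the doxycycline RNA-seq libraries, so binding and RNA were not measured at the same time. The authors' deposited table lists windows whose SRSF2 binding differed between P95H and WT, and here 8100 windows fell in 2384 genes. Such a window was present in 19.5% of higher, 11.9% of lower and 13.3% of between protein-coding genes tested. Of 4 bins of genes by CPM, in the highest, the shares were 32.4%, 27.2% and 34.2%. In the next bin they were 16.4%, 16.6% and 12.7%, so the order of the 3 groups differed between bins. The share of lower genes with a window went from 3.42% in the bin with the lowest CPM to 27.2% in the highest, and that of higher genes from 4.50% to 32.4%. In the authors' deposited table, NCL, the nucleolar protein nucleolin, had 190 windows, all with more binding in WT. NCL had 2528, 2651, 2540 and 2632 CPM against 2294 CPM. HNRNPA1 had 16 windows with more binding in WT and 5 with more in P95H, and SRSF2 had 1, with more in WT. Windows with more binding in P95H were the only ones listed for GATA2 (5), ITGA2B (4), FADS2 (3), INTS3 (2), SRSF5 and SLC16A1 (1 each), which were lower in RNA, and for SOD2 (5), SRSF3, SRSF7, EIF4A3 and UQCRB (1 each), which were higher.

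The grouping has no minimum difference, so its edge is thin. Among genes with a mean of at least 100 CPM, MED12L was just inside the higher side with 171.4 CPM in both P95H replicate 2 and the uninduced library at this rounding. ATL2 was just inside the lower side, with 128.2 CPM in both. RAB35 was just outside, with 106.0 CPM in WT replicate 2 and in the uninduced library.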

How the data were processed

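RNA-seq was measured in 5 libraries of HEL cells, grouped by their labels. The authors deposited unnormalized counts for each Ensembl gene. Per the submitters' processing notes, the tools were STAR 2.5.3a, TopHat2 2.0.14 and edgeR and the build was GRCh38.p3, with no role for each tool. What counted the reads, with which annotation and strand setting, is not stated there. The HITS-CLIP table, per the file headers, holds the authors' log2 change of P95H over WT, their FDR (an adjusted p-value) and mean CPM per genotype. It was used for the windows in each gene.

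From the counts, genes with at least 1 CPM in 2 of 5 libraries were kept, and CPM were scaled by TMM in edgeR 4.0.16 (R 4.3.3). Log2 differences used a prior count of 2. The 4 doxycycline libraries were compared with the uninduced one by the two-sided quasi-likelihood test of edgeR, and p-values were adjusted by Benjamini-Hochberg over all 15390 genes. The scripts were tested on simulated data. The lone uninduced library is assumed to vary like the others, and whether replicates were separate cultures is not given, so p-values measure the spread between these samples only. Alternatives were CPM by library total, DESeq2 1.42.0, other filters on low counts, a minimum gap, each doxycycline library left out, the P95H libraries alone and a term for replicate number. A condition on counting intervals was chosen after seeing the data.

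Gene lists (1190 of 1191 symbols matched) and members were chosen with earlier results of these data known. Named were SRSF2, the 15 genes in each direction with the largest nearest gap (mean at least 2 CPM) and, in each list, up to 4 in each direction by the same gap. Some further list members and genes called by DESeq2 were named after their values were seen. Genes were matched by symbol to RefSeq promoter windows, and several starts per gene could be listed, of which the first gave the shares and any gave the motif counts in lists. A few list members that met the rule are not reported here and are counted in the lists.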

Additional observations from a re-analysis of the deposited data

Results flagged for a closer look

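In 13 of 245 named genes, 1 doxycycline library lay far from the other 3 by Dixon's criterion, and chance alone flags about 1 in 20 groups. WT replicate 2 was the library in 9 of them. It was low for RP6-159A1.4 (18.7 CPM), SREBF1 (44.21 CPM), ITGAM (2.921 CPM) and PSMA6 (4.294 CPM), and high for TRA2A (79.31 CPM), HIPK3 (122.2 CPM), PPBP (7.14 CPM), KLF10 (62.93 CPM) and PSMA3 (142.4 CPM). P95H replicate 1 was low for PRPF31 (46.28 CPM), HBB (9.257 CPM), MYC (352.4 CPM) and BOP1 (141.0 CPM).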

How the results depend on the processing

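Counts of lower and higher genes (4191 and 3755) became 9334 and 6350 with no filter on low counts. They became 1078 and 303 with a nearest gap of at least 1.2-fold, 136 and 54 with 1.5-fold, and 1424 and 1199 with the counting-interval condition. Leaving out 1 doxycycline library gave 4451 to 5450 lower and 4048 to 4474 higher genes. Scaling moved the split, with 4503 and 3417 under library totals (56.9% lower) and 3825 and 4164 under DESeq2 size factors (47.9%), against 52.7%.

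edgeR's 0 calls became 6 lower and 3 higher (ERN2, FNDC7 and FRG2FP) with no filter, and 39 and 9 with DESeq2. They stayed at 0 with each doxycycline library left out. Same-numbered WT and P95H libraries deviated together (r = 0.688 across genes), but with 2 pairs and no label for what the number marks, they share only a number. A replicate block gave 1018 lower and 207 higher with the uninduced library midway, 156 and 53 with it placed in replicate 2, and 1952 and 768 in replicate 1. SRSF2 then had a log2 difference of -0.28 (midway), and whether it was called depended on where the uninduced library was placed. Of single named genes only RNPS1 changed sign, to 0.004 under DESeq2 size factors. Under library totals, 8 rather than 4 zinc genes and 9 rather than 4 ribosome biogenesis genes were lower. Many, but not all, of the other list counts that moved by over 1.5 times are given with the lists. Besides those, without WT replicate 2 lower genes numbered 6 for heat shock, 4 for NF-kappa-B, 4 for mitochondrially encoded, 3 for mitosis and 2 for proteasome genes. Without WT replicate 1, 5 replication genes and 2 histones were lower. Without P95H replicate 1, 7 NF-kappa-B, 5 JAK-STAT and 4 megakaryocyte genes were higher. No list named in the text with a median beyond 0.02 changed the sign of its median with scaling. Depth limits genes near 1 CPM, and 1 uninduced library limits all comparisons.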
